A study of Mus musculus with 24 samples.

Results

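The liver makes most of the proteins that clot blood, and 10 of their genes were followed here across 24 mouse livers. They are F2 (prothrombin), F7, F9, F10 and F11 (the zymogens of factors VII, IX, X and XI), F5 (the cofactor factor V), Proc (protein C), Kng1 (kininogen) and Fga and Fgb (the Aα and Bβ chains of fibrinogen). They were chosen by name as liver-made clotting proteins, with kininogen included for its link to the bile acid receptor FXR, and make up 10 of the 18820 genes measured. Each gene was read through the probe set mapped to it alone that had the highest mean. All 10 were among the brightest genes on the arrays, with mean signals at or above those of 93.6% (F7) to 99.9% (Fgb) of genes.

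Clotting is a chain of serine proteases that activate each other on a membrane surface. Factor VII starts the chain when it meets tissue factor, factors IX and XI amplify it, factor X with factor V turns prothrombin into thrombin, and thrombin cuts fibrinogen into the fibrin of the clot. Prothrombin, factors VII, IX and X and protein C need a vitamin K-dependent carboxylation before they can bind the membrane, and activated protein C switches the chain off by cutting factors V and VIII. Kininogen is the cofactor of the contact pathway that activates factor XI and is the precursor of bradykinin. FXR, encoded by Nr1h4, is a nuclear receptor for bile acids, and its ligands raise fibrinogen and kininogen transcripts in human liver cells.

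There were 4 groups of 6 mice with 1 liver per array: FXR-/- mice given obeticholic acid (OCA, INT-747, a semi-synthetic bile acid that activates FXR), FXR-/- mice given vehicle, wild-type mice given OCA and wild-type mice given vehicle. OCA was given at 10 mg/kg/day and the vehicle was 1% methyl cellulose, in which OCA was also dissolved, so every mouse had been gavaged daily for 7 days. All were male C57BL/6 mice of 9 to 12 weeks on chow. No tissue restriction of the FXR deletion is stated, and the labels do not say whether the wild-type mice were littermates. Values are log2 signals, on which 1 unit is a doubling. A value of a group is its mean ± SD, and a change is a difference of log2 signals ± SE from limma with p-values adjusted over all 18820 genes. Probe sets differ in how brightly they hybridise, so signals of different genes were not compared.

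The groups carried the marks of their labels at FXR target genes. Nr0b2, the FXR-induced repressor SHP, averaged 4.17 in knockout OCA livers, 3.97 in knockout vehicle livers, 8.00 in wild-type OCA livers and 6.59 in wild-type vehicle livers. Knockout livers were lower under vehicle in Nr0b2 (-2.62 ± 0.25, adjusted p = 1.21e-08) and in the bile salt export pump Abcb11 (-1.68 ± 0.12, adjusted p = 3.79e-11). OCA raised Nr0b2 in wild-type livers by 1.41 ± 0.25 (adjusted p = 0.0244). Of the 6 genes listed as FXR targets, OCA called 2 higher and 1 lower in wild-type livers, and 3 were not called. Abcb11 averaged 11.55 in wild-type OCA livers and 11.38 in wild-type vehicle livers. The probe set of Nr1h4 itself averaged 9.97 in knockout vehicle livers and 10.14 in wild-type vehicle livers (adjusted p = 0.0935), and it does not check the labels where it lies outside the deleted part. The 6 measured hepatocyte markers had mean signals of 12.75 to 12.89 in knockout arrays and 12.92 to 13.02 in wild-type arrays.

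One library stood apart from the rest of its group. Wild-type vehicle replicate 6 had 532 genes more than 2-fold away from the mean of the other 5 arrays of its group, against 2 to 90 genes for any other array. Its acute phase genes were high, and results for the 10 clotting genes that it moves are given with and without it. The names of the arrays also carry a code number (5, 7 or 9) that the labels do not explain. Wild-type OCA arrays were all of number 5, knockout OCA arrays all of number 9, and the vehicle groups held number 7 with either 5 or 9, so only the vehicle groups shared a number between the genotypes. Among wild-type vehicle livers only replicates 5 and 6 had number 5, and among knockout vehicle livers only replicates 1 and 2 had number 9. Fits with the number as a block tie the OCA groups to the rest through these few livers, which include wild-type vehicle replicate 6.

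Loss of FXR went with lower signals of 4 of the 10 clotting genes under vehicle, namely F7, Proc, F10 and F11, and with a higher signal of none. The same 4 genes, with Fgb and F2, were lower in knockout livers under OCA. The median change of the 10 genes was -0.26 under vehicle and -0.28 under OCA, against -0.03 and -0.02 for all genes. Without wild-type vehicle replicate 6 the median under vehicle was -0.18, with the same 4 genes called. Most of all genes are dimmer than these 10, and no median over genes of like brightness was taken. For the 6 measured hepatocyte markers the median change was -0.10 under vehicle and -0.15 under OCA. Knockout changed much of the transcriptome: 12.1% of all genes were called lower and 15.4% higher under vehicle, and 13.3% lower and 17.4% higher under OCA. Among the 1204 genes at least as bright as F7, the dimmest of the 10, the share called lower was 24.4% under vehicle and 26.1% under OCA, so the counts of 4 and 6 among 10 genes are read against those shares and not against 0. In bulk liver, fewer hepatocytes and less transcript per hepatocyte cannot be told apart.

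Some of these calls depend on how the arrays were scaled and on the array code number. The median signal of all 18820 genes with a symbol, here termed the named genes, was higher in knockout arrays by 0.17 under vehicle and 0.19 under OCA. Centring each array on it lowers every knockout change by that shift, which by itself favours lower calls. This centring called all 10 genes lower under both treatments. The array medians over all probe sets were higher in knockout arrays by only 0.02 under vehicle and under OCA. In that setting 10130 of the 18820 genes were called in either direction under vehicle, and 11099 under OCA. Under OCA, where the genotypes share no code number, fitting the number as a block left 3 of the 10 called lower (2334 genes called in all), and doing so without wild-type vehicle replicate 6 left 0 (F7 -0.58, adjusted p = 0.0658). With the 4 arrays of names ending in _2 dropped, 3 were also called lower under OCA (3857 genes called in all). Under quantile normalization 4 were (6019 genes called in all). Leaving out wild-type vehicle replicate 6 alone, which enters this comparison through the pooled spread, gave 8 called lower under OCA, the added genes being Kng1 and Fga. Genotype and code number under OCA cannot be told apart. Under vehicle F7, F10, Proc and F11 stayed called with the number as a block, within number 7 alone and with any single vehicle array left out.

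**Figure D1:**
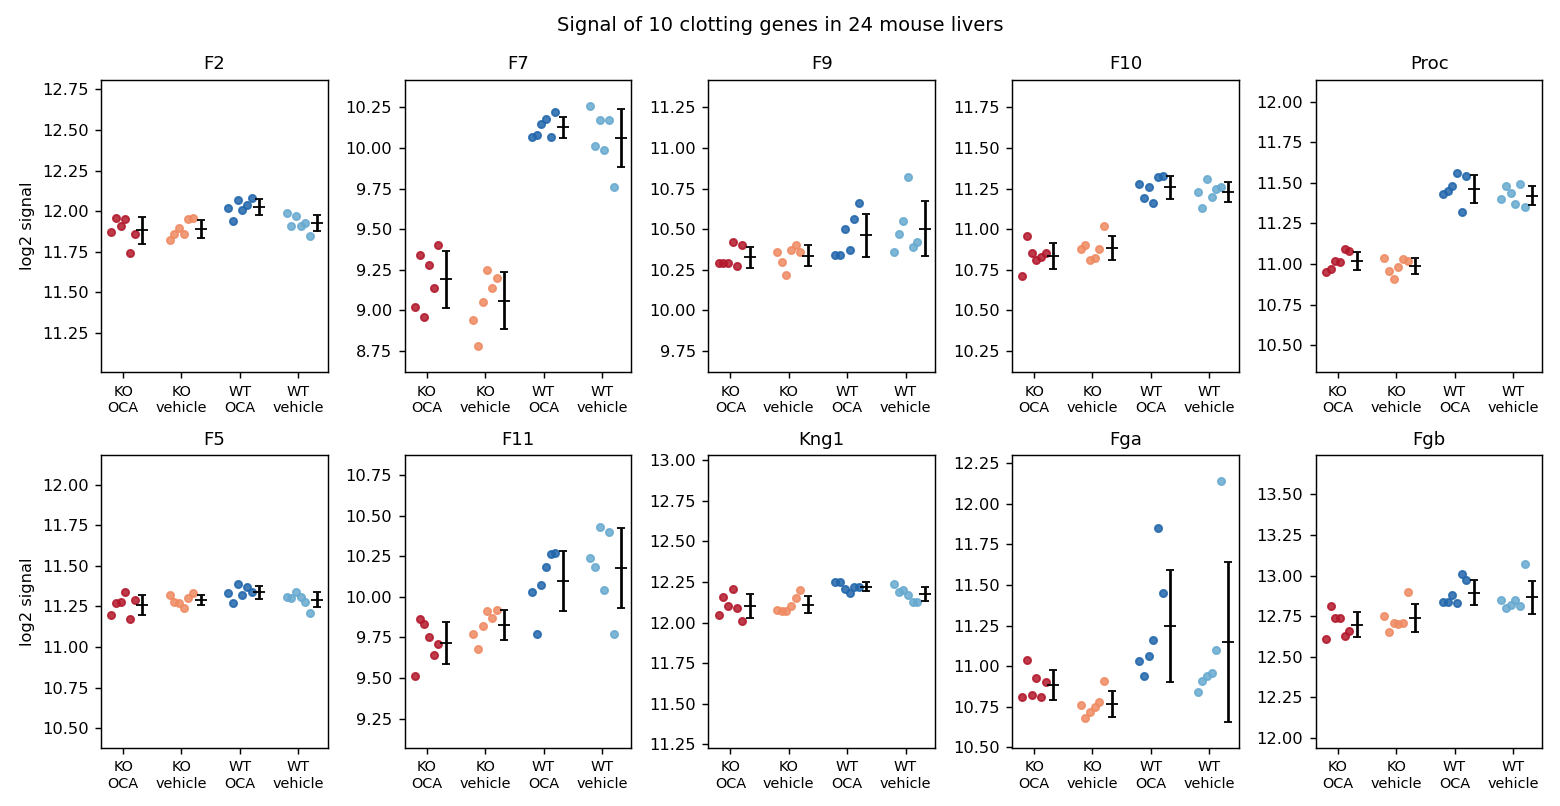
log2 signal (y axis) of the 10 clotting genes in the 4 groups (x axis), with 1 point per liver in order of replicate number and a bar for the mean ± SD of 6 livers. Every panel spans the same range of log2 units. The knockout and wild-type points of F7, F10 and Proc form separate bands, and single wild-type livers stand high in Fga.

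F7, which encodes the protease that starts clotting with tissue factor, showed the widest gap. Its signals in knockout OCA livers were 8.96 at the lowest, 9.21 at the median and 9.40 at the highest, and in knockout vehicle livers 8.78, 9.09 and 9.25 in the same order. In wild-type OCA livers they were 10.07, 10.11 and 10.22, and in wild-type vehicle livers 9.76, 10.09 and 10.26. All 12 knockout livers lay below all 12 wild-type livers, and the dimmest wild-type liver was vehicle replicate 6. Under vehicle F7 was lower in knockout livers by a log2 change of -1.0 ± 0.09 (95% interval -1.19 to -0.81, adjusted p = 3.41e-09), a signal 50% lower. Under OCA the knockout change was -0.94 ± 0.09 (adjusted p = 9.52e-09). Under vehicle 170 of 18820 genes had a change at least as far down, or 28 of the 1204 genes at least as bright as F7. Without wild-type vehicle replicate 6 the vehicle change was -1.06 (adjusted p = 9.07e-10), and within the 4 knockout and 4 wild-type vehicle arrays of code number 7 it was -0.95 (adjusted p = 2.60e-05).

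Proc, the zymogen of the anticoagulant protease protein C, was lower in knockout livers by nearly the same amount under both treatments. It spanned 10.95 to 11.09 in knockout OCA livers (median 11.02), 10.91 to 11.04 in knockout vehicle livers (median 11.00), 11.32 to 11.56 in wild-type OCA livers (median 11.46) and 11.35 to 11.49 in wild-type vehicle livers (median 11.42). The knockout and wild-type livers did not overlap. The change was -0.43 ± 0.05 under vehicle (adjusted p = 2.08e-07, 25.8% lower) and -0.44 ± 0.05 under OCA (adjusted p = 1.22e-07).

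F10, the zymogen of the protease that makes thrombin, spanned 10.71 to 10.96 in knockout OCA livers (median 10.84) and 10.81 to 11.02 in knockout vehicle livers (median 10.88). In wild-type livers it spanned 11.16 to 11.33 under OCA (median 11.27) and 11.13 to 11.31 under vehicle (median 11.24), so the genotypes again fell into separate ranges. The knockout change was -0.35 ± 0.05 under vehicle (adjusted p = 1.15e-05, 21.4% lower) and -0.42 ± 0.05 under OCA (adjusted p = 6.23e-07). F7, F10 and Proc were the only ones of the 10 genes whose genotypes did not overlap over all 24 livers. Over both treatments 2.9% of all genes, and 12.4% of the 1204 genes at least as bright as F7, had all 12 knockout livers below all 12 wild-type livers. Under vehicle alone 5.67% of all genes had every knockout liver below every wild-type liver.

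The other vitamin K-dependent zymogens differed less. F2, the precursor of thrombin, spanned 11.74 to 11.96 in knockout OCA livers, 11.82 to 11.96 in knockout vehicle livers, 11.94 to 12.08 in wild-type OCA livers and 11.85 to 11.99 in wild-type vehicle livers. It was called lower in knockout livers under OCA (-0.15 ± 0.05, adjusted p = 0.0233) and not under vehicle (-0.04 ± 0.05, interval -0.14 to 0.06, adjusted p = 0.614), and the difference between those changes was itself not called (-0.11 ± 0.07, adjusted p = 0.855). Under OCA the F2 call was lost when knockout OCA replicate 5 or wild-type OCA replicate 6 was left out. It was also lost under quantile normalization (-0.08, adjusted p = 0.209), with only the groups compared in the fit (adjusted p = 0.0601), with the code number (0.521) or the code letter (0.0685) as a block, without the arrays ending in _2 (0.266), and with the number block when wild-type vehicle replicate 6 was also dropped (0.736). F9, whose product works with factor VIII to activate factor X, was not called under vehicle (-0.17 ± 0.07, adjusted p = 0.0856) or under OCA (-0.14 ± 0.07, adjusted p = 0.151). Under vehicle F9 was called lower with array weights, with a filter at the median gene and with centring on the named genes. Under OCA only that centring called F9. Its knockout livers were tightly grouped between 10.22 and 10.42, while its wild-type livers ran between 10.34 and 10.82.

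F7 and F10 lie next to each other on mouse chromosome 8, followed by Proz (protein Z), in RefSeq's gene order for GRCm38.p6. Of these neighbours F7 changed most, F10 by -0.35 and Proz by -0.20 ± 0.05 under vehicle (adjusted p = 0.00391). Promoter windows from RefSeq, with 250 bases before and 50 from each gene's start, were read for 8 of the 10 genes. Proc and Kng1 had no window here. The windows of F7 and F10 are shown because these neighbours were both lower in knockout livers, and that of F2 because it carries the same short motif and was not called under vehicle. All are from GRCm38.p6 and written along the strand of the gene, F7 at chr8:13025784-13026083 (plus strand), F10 at chr8:13037058-13037357 (plus strand) and F2 at chr2:91636408-91636707 (minus strand). Capitals mark matches to the motifs searched.
F7: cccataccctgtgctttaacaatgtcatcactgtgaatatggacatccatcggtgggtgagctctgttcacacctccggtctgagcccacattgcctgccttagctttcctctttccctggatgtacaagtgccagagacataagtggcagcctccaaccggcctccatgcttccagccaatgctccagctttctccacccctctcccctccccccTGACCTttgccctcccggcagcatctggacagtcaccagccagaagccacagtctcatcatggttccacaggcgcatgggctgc
F10: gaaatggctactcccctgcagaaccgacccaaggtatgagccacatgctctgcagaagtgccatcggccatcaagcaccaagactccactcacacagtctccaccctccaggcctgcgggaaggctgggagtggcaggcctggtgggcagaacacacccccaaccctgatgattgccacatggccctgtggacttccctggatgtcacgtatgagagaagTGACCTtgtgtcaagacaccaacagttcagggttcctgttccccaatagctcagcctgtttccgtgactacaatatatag
F2: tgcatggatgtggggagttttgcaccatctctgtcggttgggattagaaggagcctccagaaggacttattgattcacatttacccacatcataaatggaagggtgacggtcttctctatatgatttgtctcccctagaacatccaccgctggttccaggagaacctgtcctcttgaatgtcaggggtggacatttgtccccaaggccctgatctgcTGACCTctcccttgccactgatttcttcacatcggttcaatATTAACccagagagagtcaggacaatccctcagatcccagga
The motifs were searched on both strands. AGGTCA, the half-site bound by many nuclear receptors, appeared as its reverse complement TGACCT with its first base 34 bases before the start of F7, 30 before that of F10 and 33 before that of F2. It was in 5 of the 8 windows (F2, F5, F7, F9 and F10), of which F7 and F10 were called lower under vehicle, and in 16.2% of 32544 RefSeq windows of the same length. F11, which was called lower, had no such match. The FXR inverted repeat, AGGTCA followed by any 1 base and then TGACCT, the form in which FXR binds DNA with its partner RXR, was in 0 of the 8 windows and in 0.00922% of all windows. An HNF4 core, CAAAGTCCA, was in 0 of the 8 and in 0.479% of all windows. Only this exact form was searched, so whether the windows hold an HNF4 site of another form was not tested. The second capital run of F2, ATTAAC, matches the HNF1 half-site GTTAAT, which 3 of the 8 windows held (F2, Fga and Fgb) and 7.13% of all windows. A match of this kind is a run of letters and not a measured binding site.

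Among the genes of the cofactor and contact arms, F11 was lower in knockout livers and F5 and Kng1 were not called. F11, the zymogen that amplifies clotting, spanned 9.51 to 9.86 in knockout OCA livers (median 9.73), 9.68 to 9.92 in knockout vehicle livers (median 9.84), 9.77 to 10.27 in wild-type OCA livers (median 10.12) and 9.77 to 10.43 in wild-type vehicle livers (median 10.21). The ranges overlapped through the lowest liver of each wild-type group, which under vehicle was replicate 6. Its change was -0.35 ± 0.10 under vehicle (adjusted p = 0.00832) and -0.38 ± 0.10 under OCA (adjusted p = 0.00372), and -0.43 under vehicle without wild-type vehicle replicate 6 (adjusted p = 4.75e-04). Under OCA the F11 call was lost with the code number as a block (-0.36, adjusted p = 0.342), without the arrays ending in _2 (-0.37, adjusted p = 0.0513), and with the number block when wild-type vehicle replicate 6 was also dropped, where the change was -0.05 (adjusted p = 0.932). Its neighbour on chromosome 8, Klkb1 (plasma prekallikrein), shares a probe set with Cyp4v3 and was not analysed here.

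F5, the cofactor that speeds the making of thrombin, held nearly the same signal in every group. It averaged 11.26 ± 0.06 in knockout OCA livers, 11.29 ± 0.04 in knockout vehicle livers, 11.34 ± 0.04 in wild-type OCA livers and 11.29 ± 0.05 in wild-type vehicle livers (SD, n = 6 each). The 95% interval of its knockout change was -0.09 to 0.09 under vehicle and -0.17 to 0.01 under OCA. Kng1 averaged 12.10 ± 0.07 in knockout OCA livers, 12.11 ± 0.05 in knockout vehicle livers, 12.22 ± 0.03 in wild-type OCA livers and 12.18 ± 0.04 in wild-type vehicle livers. Its knockout change was -0.07 ± 0.05 under vehicle (adjusted p = 0.316) and -0.12 ± 0.05 under OCA (adjusted p = 0.0519). The OCA value lay close to the threshold, and Kng1 was called lower with arrays centred on their medians (adjusted p = 0.0306) or on the named genes (1.87e-05), with a filter at a mean signal of 20 (0.0192) or at the median gene (0.015), with trend and robust eBayes (0.0102), with array weights (0.031) and over all probe sets (0.0472). It was also called when knockout OCA replicate 2 (0.0457) or 4 (0.0261) or wild-type vehicle replicate 6 (0.0427) was left out. Kng2, the neighbouring second kininogen gene of the mouse, was lower under vehicle (-0.17 ± 0.07, adjusted p = 0.049) and under OCA (-0.20 ± 0.07, adjusted p = 0.0202).

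**Figure D2:**
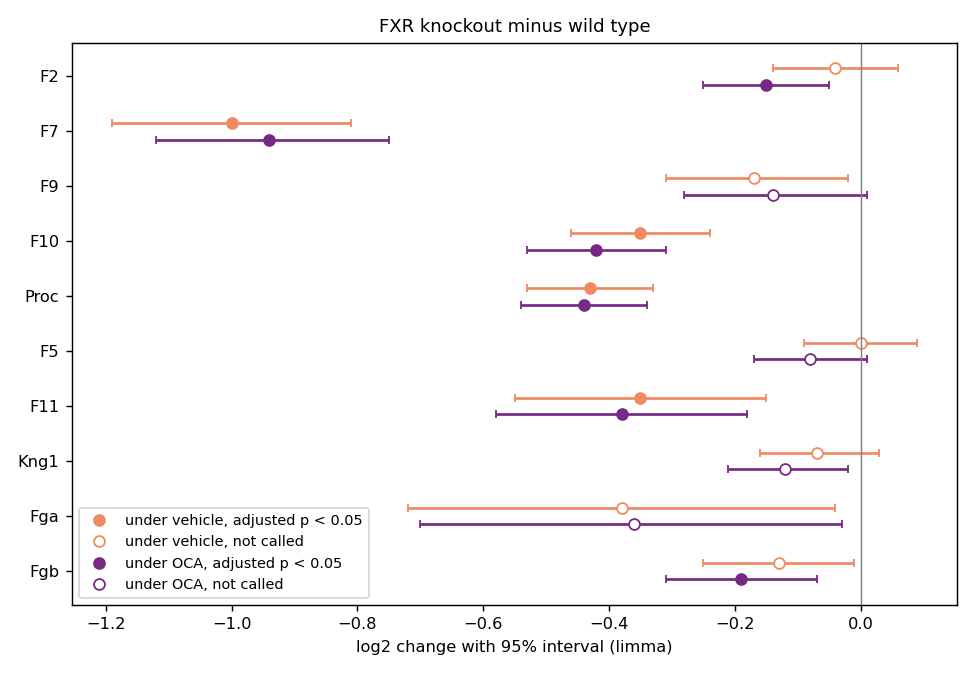
log2 change of knockout minus wild type (x axis) for the 10 genes (y axis), under vehicle and under OCA, with 95% intervals from limma. Filled points are called at an adjusted p under 0.05. F7 stands farthest to the left at -1.0 and -0.94, and the interval of F5 under vehicle is centred on 0.00.

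In the fibrinogen chains, single livers carried much of the spread. Fga spanned 10.81 to 11.04 in knockout OCA livers (median 10.86), 10.68 to 10.91 in knockout vehicle livers (median 10.75), 10.94 to 11.85 in wild-type OCA livers (median 11.11) and 10.84 to 12.14 in wild-type vehicle livers (median 10.95). The highest wild-type vehicle liver, replicate 6, was more than 1 unit above the next at 11.10, and no knockout liver passed 11.04. The SD of Fga was 0.41 over the 12 wild-type livers and 0.10 over the 12 knockout livers. Its knockout change of -0.38 ± 0.16 under vehicle was not called (adjusted p = 0.0901), and dropping wild-type vehicle replicate 6 gave -0.18 (adjusted p = 0.245). The vehicle change of Fga was called with the code letter as a block and with centring on the named genes. Under OCA it was -0.36 ± 0.16 (adjusted p = 0.0981), and without wild-type OCA replicate 5 it was -0.24 (adjusted p = 0.265). The Fga change under OCA was called when wild-type vehicle replicate 6 was left out of the pooled spread (-0.36, adjusted p = 0.00908), with array weights (-0.33, adjusted p = 0.0252), with only the groups compared in the fit (-0.36, adjusted p = 0.0446) and with the code letter as a block (-0.50, adjusted p = 0.0179). A second, dimmer Fga probe set also peaked in wild-type vehicle replicate 6, at 11.37 against a group mean of 9.55.

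Fgb spanned 12.61 to 12.81 in knockout OCA livers, 12.65 to 12.90 in knockout vehicle livers, 12.83 to 13.01 in wild-type OCA livers and 12.80 to 13.07 in wild-type vehicle livers. It was called lower in knockout livers under OCA, where the groups did not overlap (-0.19 ± 0.06, adjusted p = 0.0118), and not under vehicle (-0.13 ± 0.06, adjusted p = 0.106). Under vehicle Fgb was called with arrays centred on their medians or on the named genes, and with trend and robust eBayes. It was also called without knockout vehicle replicate 6 (adjusted p = 0.0449). Without wild-type vehicle replicate 6 the vehicle change was -0.09 (adjusted p = 0.245). The OCA call was lost under quantile normalization (-0.10, adjusted p = 0.148), with the code number as a block (-0.03, adjusted p = 0.922), without the arrays ending in _2 (-0.19, adjusted p = 0.102) and with the number block when wild-type vehicle replicate 6 was also dropped (-0.16, adjusted p = 0.558). Under OCA 7.48% of all genes had every knockout liver below every wild-type liver. Fgg, the third chain, was lower in knockout livers under vehicle (-0.23 ± 0.07, adjusted p = 0.0144) and under OCA (-0.22 ± 0.07, adjusted p = 0.016), where quantile normalization ended the call (-0.16, adjusted p = 0.0619). Fgg, Fga and Fgb lie in this order beside each other on mouse chromosome 3.

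Within the wild-type groups, the livers highest in Fga were also the highest in haptoglobin, Steap4 and serum amyloid A. Haptoglobin (Hp), Steap4 and serum amyloid A (Saa2) are acute phase genes that inflammation raises in hepatocytes. In wild-type vehicle replicate 6, Fga lay 1.19 above the mean of the other 5 livers of its group, with Hp 0.71, Steap4 2.51 and Saa2 5.23 above. In wild-type OCA replicate 5 the deviations were 0.72 for Fga, 0.45 for Hp, 1.66 for Steap4 and 4.12 for Saa2, and in wild-type OCA replicate 6 they were 0.25, 0.27, 0.87 and 2.73 in the same order. After subtracting the group means, the genes most like Fga over the 24 livers were Prg4 (Pearson r = 0.97), Steap4 (0.96) and Slc37a1 (0.94), and those most like Fgb were Itih4 (0.89), Serpina10 (0.88) and Itih3 (0.87). These correlations are descriptions over arrays that share 3 high livers. Between the genotypes this order did not hold for every acute phase gene: under vehicle Lcn2 (3.28 ± 0.72, adjusted p = 9.44e-04) and Apcs (1.26 ± 0.25, adjusted p = 3.94e-04) were higher in knockout livers, where Fga was not. Lcn2 spanned 11.98 to 12.42 in knockout OCA livers, 11.88 to 12.45 in knockout vehicle livers, 7.51 to 12.09 in wild-type OCA livers and 7.79 to 13.06 in wild-type vehicle livers, and Apcs averaged 10.48 in both knockout groups, 9.15 in wild-type OCA livers and 9.21 in wild-type vehicle livers.

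**Figure D3:**
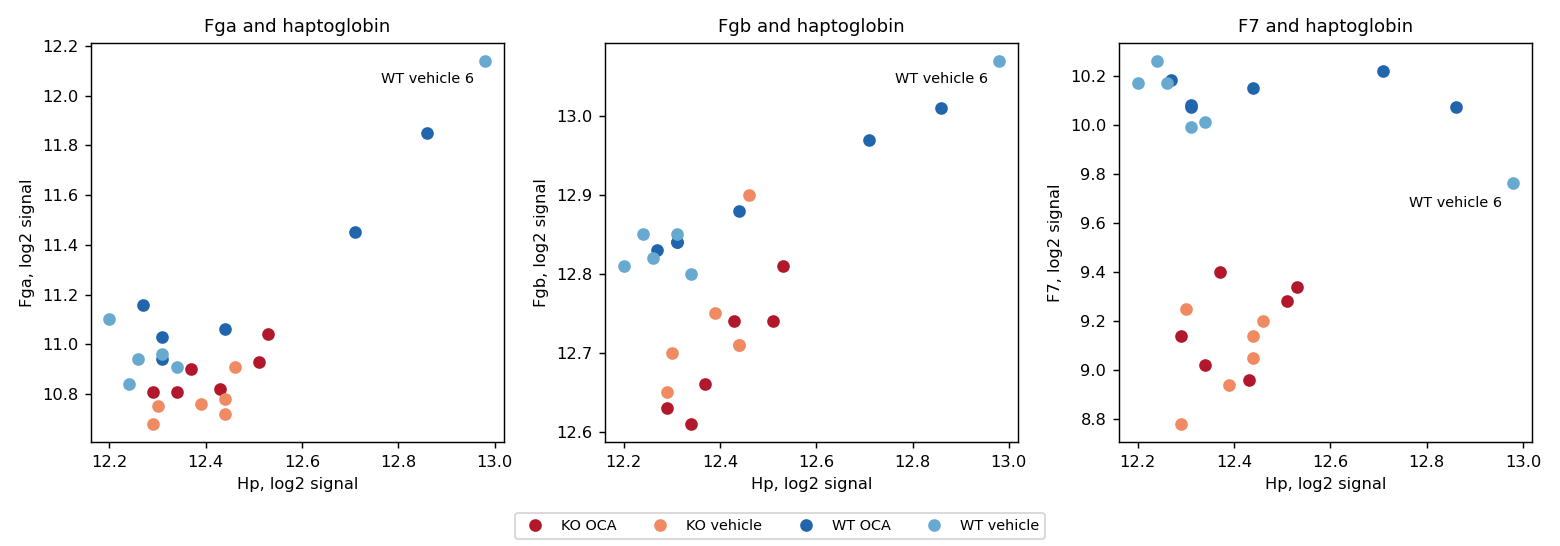
log2 signal of Fga, Fgb and F7 (y axes) against that of haptoglobin, Hp (x axes), with 1 point per liver coloured by group. The 3 wild-type livers with the highest Hp have the highest Fga and Fgb, and wild-type vehicle replicate 6 has the lowest F7 of the wild-type livers, at 9.76.

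The promoter windows of Fga and Fgb are shown because these chains varied together within the groups (r = 0.80 over 24 livers). They are from GRCm38.p6 and written along the strand of the gene, Fga at chr3:83025903-83026202 (plus strand) and Fgb at chr3:83049814-83050113 (minus strand), with motif matches in capitals.
Fga: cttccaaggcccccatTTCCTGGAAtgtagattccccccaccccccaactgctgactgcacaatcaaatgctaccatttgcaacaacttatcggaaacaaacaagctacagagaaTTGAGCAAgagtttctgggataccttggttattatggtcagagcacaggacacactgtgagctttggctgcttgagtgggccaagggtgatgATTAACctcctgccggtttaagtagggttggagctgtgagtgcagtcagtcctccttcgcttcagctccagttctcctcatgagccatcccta
Fgb: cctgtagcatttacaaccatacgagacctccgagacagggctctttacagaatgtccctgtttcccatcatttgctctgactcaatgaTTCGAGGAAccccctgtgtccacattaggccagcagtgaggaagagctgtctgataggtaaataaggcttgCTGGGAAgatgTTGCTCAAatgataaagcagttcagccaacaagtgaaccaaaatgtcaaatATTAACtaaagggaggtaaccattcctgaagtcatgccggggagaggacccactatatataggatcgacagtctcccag
In Fga, from left to right, the capitals mark TTCNNNGAA (a palindrome bound by STAT factors), TTGCNNAA (a C/EBP motif, found on the opposite strand) and the HNF1 half-site. In Fgb they mark TTCNNNGAA, CTGGGAA (the core bound by STAT3 in acute phase genes), TTGCNNAA and the HNF1 half-site. Among the 8 windows TTGCNNAA was in 4 (F9, F11, Fga and Fgb), TTCNNNGAA in 3 (F9, Fga and Fgb) and CTGGGAA in 2 (F9 and Fgb), against 10.8%, 8.33% and 11% of all 32544 windows.

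Likeness to F7 was highest for Proc and F10 among the 10 genes. Over the 24 livers as they are, F7 correlated with Proc at 0.95 and with F10 at 0.91, and the genes most like F7 were Sdc2 (0.98), Ftcd (0.97) and Hal (0.97). After subtracting group means, which removes what genotype and treatment add, F7 correlated with Proc at 0.36 and with F10 at 0.22. F7 correlated with F11 at 0.80 as they are and at 0.62 after subtracting group means. F2 and F5 correlated at 0.79 as they are and at 0.73 within groups, F2 and F11 at 0.66 and 0.63, and F11 was most like Pacc1 (0.87) and Serpind1 (0.86), the gene of heparin cofactor II. All these values share the same 24 arrays and are given as descriptions.

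OCA changed the signal of none of the 10 clotting genes at the threshold, in either genotype. Under limma 0 of 10 were called in wild-type livers, where 0.0691% of all genes were called (13 of 18820), and 0 of 10 in knockout livers, where 0.0159% were called (3 genes). The total in wild-type livers depended on the fit. It was 2 genes with only the groups compared and 667 with the code number as a block, with 0 of the 10 called in either. At an unadjusted p under 0.05, 1 of the 10 genes (F2) and 1782 of all genes passed in wild-type livers, and 0 of 10 and 968 of all genes in knockout livers. In wild-type livers F2 changed by 0.10 ± 0.05 (interval 0.00 to 0.20, adjusted p = 0.526), Kng1 by 0.05 ± 0.05 (interval -0.05 to 0.14) and F7 by 0.07 ± 0.09 (interval -0.12 to 0.25). Fgb changed by 0.03 ± 0.06 (interval -0.09 to 0.15) and Fga by 0.10 ± 0.16 (interval -0.24 to 0.44). Over the 10 genes the intervals in wild-type livers ran between -0.28 (F11) and 0.44 (Fga), so an OCA effect of that size on Fga is within what these livers allow. In knockout livers the changes ran between -0.11 (F11) and 0.13 (F7).

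The OCA change of Fga turned on the wild-type livers with high acute phase genes. Without wild-type vehicle replicate 6 it was 0.30 (adjusted p = 0.335), without wild-type OCA replicate 5 it was -0.02 (adjusted p = 0.984), and within the wild-type arrays of code number 5 it was -0.37 (adjusted p = 0.677). The only vehicle livers of number 5 were replicates 5 and 6, so the last value rests largely on replicate 6. The part of the acute phase genes in these values was not tested. The difference of the OCA effects, knockout minus wild type, was called for 0 of the 10 genes and for 0% of all genes under limma, with 1140 of all genes at an unadjusted p under 0.05. OCA comparisons and knockout comparisons share their vehicle livers, so their values are not independent.

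**Figure D4:**
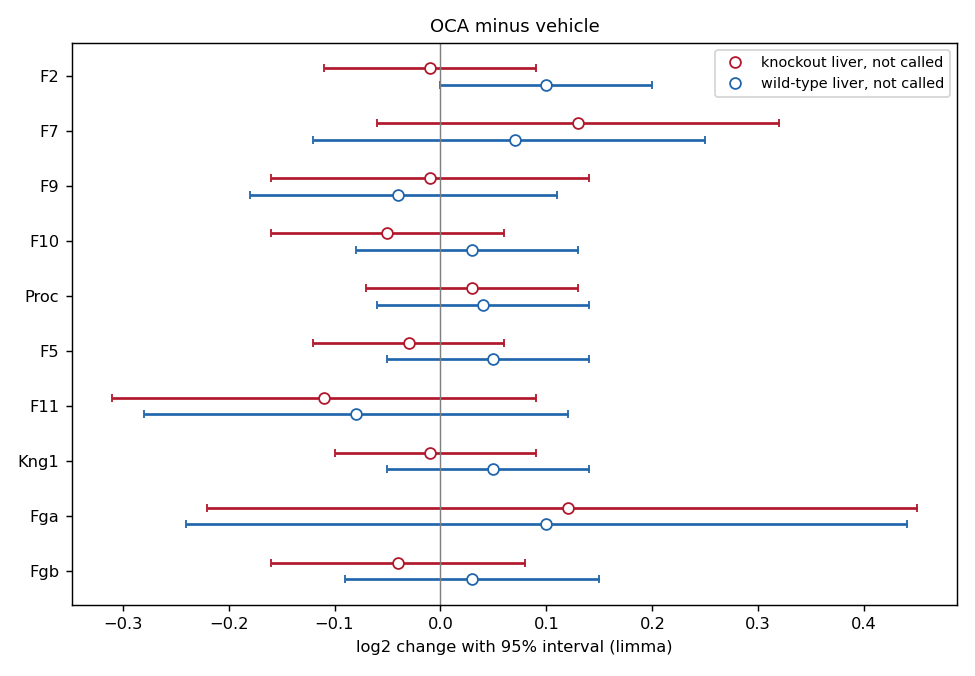
log2 change of OCA minus vehicle (x axis) for the 10 genes (y axis) in knockout and wild-type livers, with 95% intervals from limma. No gene was called, and all 10 intervals include 0 in knockout livers. In wild-type livers the interval of F2 begins at 0.00.

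The genes around these 10 in the clotting system were read from lists of 41 measured genes. Of all 18820 genes, 12.1% were called lower and 15.4% higher in knockout livers under vehicle. Under OCA 13.3% were called lower and 17.4% higher. Among the 1204 genes at least as bright as F7, 24.4% were called lower under vehicle and 26.1% under OCA. Of 11 genes listed as other clotting and contact genes, 6 were lower and 1 higher in knockout livers under vehicle, and 5 lower and 1 higher under OCA. The list includes Hgfac, which is not itself a clotting factor. F12, the protease that starts the contact pathway, changed by -0.19 ± 0.05 (adjusted p = 0.00382), F13b, the carrier subunit of the fibrin-crosslinking factor XIII, by -0.22 ± 0.06 (adjusted p = 0.00584), and F8, the cofactor of factor IX, by -0.31 ± 0.09 (adjusted p = 0.0103). Under OCA the F8 change was 0.05 ± 0.09 (adjusted p = 0.719), and the difference between those changes was not called (0.36 ± 0.13, adjusted p = 0.652). Hgfac, the activator of hepatocyte growth factor, changed by -0.31 ± 0.06 (adjusted p = 5.33e-04). Vwf, the carrier of factor VIII made by endothelium, was higher by 0.19 ± 0.07 (adjusted p = 0.049). The calls of Vwf and Kng2 were lost without wild-type vehicle replicate 6 (adjusted p = 0.111 for Vwf and 0.125 for Kng2) and under quantile normalization (0.55 for Vwf and 0.187 for Kng2). That of Vwf was also lost with arrays centred on their medians (0.106) or on the named genes (0.782).

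Against 12.1% of all genes lower and 15.4% higher under vehicle, and 13.3% and 17.4% under OCA, the anticoagulants were counted next. Of 16 anticoagulants and protease inhibitors, 6 were lower and 2 higher in knockout livers under vehicle, and 6 lower and 4 higher under OCA. Without wild-type vehicle replicate 6 they were 5 lower and 2 higher under vehicle, the call of Serpina5, a protein C inhibitor, being lost (-0.36, adjusted p = 0.0648). Serpinc1, which encodes antithrombin, averaged 12.04 in knockout vehicle livers and 12.30 in wild-type vehicle livers, a change of -0.26 ± 0.04 (adjusted p = 6.42e-05). Pros1, the gene of the protein C cofactor protein S, was higher (0.53 ± 0.09, adjusted p = 9.75e-05), while Proc was lower. Itih1 (-0.47 ± 0.07, adjusted p = 3.49e-06) and Itih3 (-0.65 ± 0.14, adjusted p = 7.29e-04), heavy chains of inter-alpha-trypsin inhibitor, and the C1 inhibitor Serping1 (-0.31 ± 0.06, adjusted p = 1.87e-04) were lower.

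Of the 7 measured genes on the fibrinolysis list, 4 were higher and 1 lower under vehicle (5 higher and 1 lower without wild-type vehicle replicate 6), and 4 higher and 2 lower under OCA. Of all genes 15.4% were higher and 12.1% lower under vehicle, and 17.4% higher and 13.3% lower under OCA. The fibrinolysis list includes Fgl1, which is also on the acute phase list. The plasminogen activators Plat (0.77 ± 0.12, adjusted p = 2.27e-05) and Plau (0.51 ± 0.09, adjusted p = 5.98e-05), the urokinase receptor Plaur and the plasminogen receptor Plgrkt were higher in knockout livers. Plat, Plau and Plaur were dim, averaging 4.69, 4.53 and 4.62 in knockout vehicle livers and 3.92, 4.02 and 4.26 in wild-type vehicle livers. The median gene averaged 5.28 over the arrays. Plg, the plasminogen gene that hepatocytes express, was not called under vehicle (-0.13 ± 0.05, adjusted p = 0.0575), and Serpinf2, the gene of alpha-2-antiplasmin, was lower (-0.16 ± 0.05, adjusted p = 0.0263). Plaur and Serpinf2 were not called under quantile normalization (adjusted p = 0.139 for Plaur and 0.104 for Serpinf2). Plaur was also not called with centring on the named genes (adjusted p = 0.169). Plat, Plau and Plgrkt kept their calls under each scaling.

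**Figure D5:**
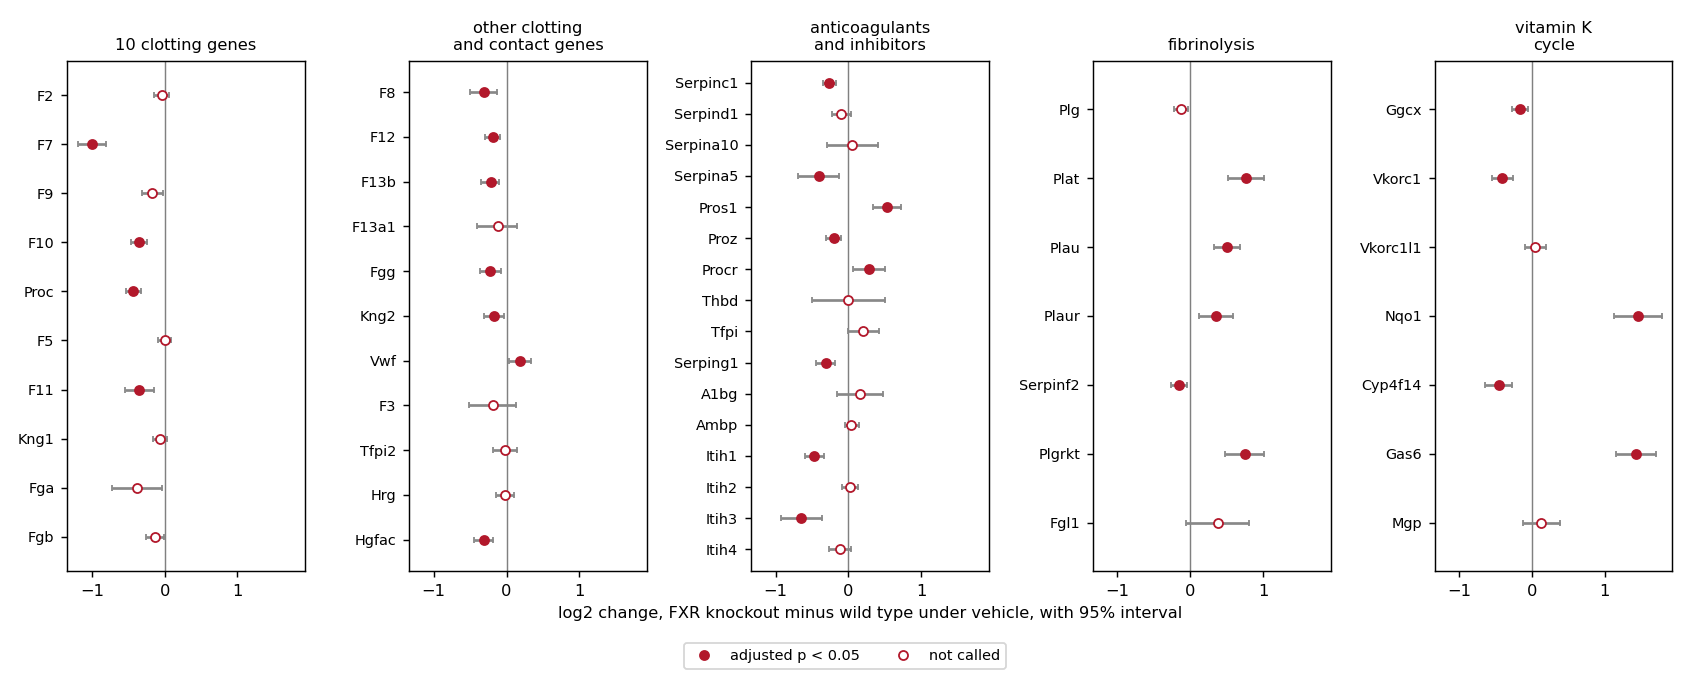
log2 change of knockout minus wild type under vehicle (x axes) with 95% intervals for the 10 genes and 41 other genes of clotting, anticoagulation, fibrinolysis and the vitamin K cycle (y axes). Filled points are called at an adjusted p under 0.05. Most called clotting genes lie left of 0, and 4 of the 5 called fibrinolysis genes lie right of it.

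The vitamin K cycle supports the carboxylation of F2, F7, F9, F10 and Proc products. Its list also holds Gas6 and Mgp, whose products are themselves carboxylated. Of the 7 measured genes on it, 3 were lower and 2 higher under vehicle, and 2 lower and 3 higher under OCA. Of all genes 12.1% were lower and 15.4% higher under vehicle, and 13.3% lower and 17.4% higher under OCA. Ggcx, the carboxylase, averaged 10.20 in knockout vehicle livers and 10.36 in wild-type vehicle livers (-0.16 ± 0.05, adjusted p = 0.0216), and was not called under OCA (-0.09 ± 0.05, adjusted p = 0.202). Vkorc1, the vitamin K epoxide reductase that warfarin inhibits, was lower under vehicle (-0.41 ± 0.07, adjusted p = 6.90e-05) and under OCA (-0.57 ± 0.07, adjusted p = 5.54e-07). Cyp4f14, a cytochrome P450, was lower as well (-0.46 ± 0.09, adjusted p = 4.36e-04). The quinone reductase Nqo1 (1.45 ± 0.16, adjusted p = 1.22e-07) and Gas6, a vitamin K-dependent ligand of receptor kinases (1.43 ± 0.13, adjusted p = 5.41e-09), were higher.

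Of 15 liver transcription factors, 7 were called lower, 0 higher and 8 not called in knockout livers under vehicle. The 7 include the FXR target Nr0b2. Of all genes 12.1% were called lower and 15.4% higher in that comparison. Without wild-type vehicle replicate 6, 10 of the 15 were lower. Centring on the named genes, which lowers every knockout change, called 12 of the 15 lower under vehicle, and 10130 of all genes in either direction. Hnf4a, a nuclear receptor needed for the expression of many clotting genes in hepatocytes, averaged 11.04 in knockout vehicle livers and 11.57 in wild-type vehicle livers without overlap (-0.52 ± 0.08, adjusted p = 2.95e-05). Its knockout change under OCA was -0.56 ± 0.08 (adjusted p = 8.75e-06). Whether Hnf4a had a part in the clotting gene changes was not tested. Foxa3, Stat5b, Nr1i2, Onecut1 and Foxa2 were also lower under vehicle, besides Nr0b2. Of 21 acute phase genes 5 were higher and 4 lower (7 higher and 3 lower without wild-type vehicle replicate 6), among them Orm2 higher (3.43 ± 0.44, adjusted p = 1.27e-06) and Il6ra, a chain of the interleukin-6 receptor, lower (-1.22 ± 0.12, adjusted p = 2.79e-08).

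Markers of other liver cells moved with genotype too. Of all genes 15.4% were called higher and 12.1% lower under vehicle, and 17.4% higher and 13.3% lower under OCA. Under vehicle 8 of 12 Kupffer cell markers were higher and 1 (Cd163) lower in knockout livers (9 higher and 1 lower without wild-type vehicle replicate 6), and 6 of 7 stellate markers were higher. Of 9 sinusoidal endothelial markers 0 were higher and 2 lower under vehicle (median -0.13), and 2 were higher and 0 lower under OCA (median 0.16; 4 higher without wild-type vehicle replicate 6). Of 4 cholangiocyte markers 2 (Krt19 and Epcam) were higher under vehicle and 0 under OCA. The mean signal of the Kupffer list was 8.36 to 8.58 in knockout vehicle livers and 7.56 to 8.65 in wild-type vehicle livers, and that of the stellate list 8.03 to 8.29 in knockout vehicle livers and 7.21 to 7.53 in wild-type vehicle livers. Of the 6 hepatocyte markers, 1 was lower under vehicle (Cps1, -0.30 ± 0.05, adjusted p = 5.33e-05) and 5 were lower under OCA, with list medians of -0.10 under vehicle and -0.15 under OCA. Centring on the named genes, which lowers every knockout change, called all 6 lower under vehicle, where it called 10130 of all genes. The part of other cell types in the clotting gene changes was not tested.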

How the data were processed

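The deposited log2 signals of 24 whole-transcript arrays were used with no further normalization. The authors made them by RMA, per the submitters' processing notes. Neither its version nor the log base is stated, and values from 0.87 to 13.6 were read as log2. Per the labels each array held 1 mouse. Of 35556 probe sets, 21218 mapped to 1 symbol, 1881 to several and 12457 had no entry in the probe table. Symbols were matched by gene number for 21185 of them to RefSeq genes (GRCm38.p6), and the probe set with the highest mean stood for each of 18820 genes. The number of arrays limits the precision, and no detection calls were used here.

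limma 3.58.1 in R 4.3.3 fitted 1 mean per group (20 residual and 4.46 prior degrees of freedom) and was tested on simulated data. Benjamini-Hochberg adjustment ran over 18820 genes, and genes were called at an adjusted p under 0.05. Python 3.11.15 with matplotlib 3.10.9 drew the figures. The 10 genes, the gene lists and the motifs were chosen with earlier results of these data known. The genes mentioned in the text were the 10, FXR target genes, and up to 4 called genes per list, contrast and direction by smallest p. To these were added Fgg, Kng2, F12, Serpinc1, Plg, Ggcx and Vkorc1, and for each of the 10 the 3 most correlated genes. Other genes were mentioned after their values were seen. The 15 alternatives besides leaving out single arrays cover scaling, filters, variance model, probe sets, array codes and pairing. Centring on the named genes, meaning all 18820 genes with a symbol, was added after seeing the data.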

Additional observations from a re-analysis of the deposited data

Results flagged for a closer look

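Of 40 groups of 6 livers (10 genes in 4 groups), 2 had a single liver set apart from the other 5 by more than Dixon's critical value of 0.625 of the group's range, and chance gives about 1 in 20. Both were wild-type vehicle replicate 6. Fga read 12.14 there, with the next liver at 11.10 and the lowest at 10.84, a gap of 0.80 of the range. Fgb read 13.07, with the next at 12.85 and the lowest at 12.80, a gap of 0.79 of the range. In the same liver the third fibrinogen chain, Fgg, lay 0.36 above the mean of the other 5 livers, the pentraxin Apcs 1.85 above and Lcn2 4.92 above, with a median of 0.87 above over the acute phase list. F7, at 9.76, was the lowest of its group.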

How the results depend on the processing

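The calls of F7, F10, Proc and F11 lower in knockout livers under vehicle held in each of the 15 alternatives, in the added centring and with any single vehicle array left out (F7 -1.17 to -0.94). The count of the 10 genes called lower under vehicle was 4 in the reported fit, 4 to 5 with one of the 12 vehicle arrays left out, and 10 with arrays centred on the median of the named genes (10130 genes called). Under OCA it was 6, with 5 to 7 when one of the 12 OCA arrays was left out, 8 without wild-type vehicle replicate 6, 4 under quantile normalization, 8 with array weights, 10 with centring on the named genes (11099 genes called), 3 when the array code number was a block, 3 without the arrays ending in _2 and 0 when wild-type vehicle replicate 6 was dropped beside the number block. The last setting fits fewer arrays and ties genotype under OCA to the number through the vehicle groups; the cause of the other shifts was not tested.

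Some small, uncalled changes turned sign. For OCA in wild-type livers, the code number as a block and number 5 alone gave F9 0.06, F11 0.01, Fga -0.37 and Fgb -0.04, and the block without wild-type vehicle replicate 6 gave F7 -0.04, F9 0.07 and Proc -0.03. For OCA in knockout livers, quantile normalization gave F2 0.01, F9 0.00 and Kng1 0.00; the number block, with and without that replicate, and number 9 alone gave F2 0.04 and Kng1 0.03; leaving out the arrays ending in _2 gave F2 0.04, Proc -0.01 and Kng1 0.03. For knockout minus wild type, quantile normalization gave F5 0.06 under vehicle and the number block gave Fga 0.41 under OCA. For the difference of the OCA effects, centring on the named genes gave Fga -0.01, array weights F11 0.03 and Fga -0.11, the number block F9 -0.06 and Fgb 0.04, the code letter as a block Fga -0.04, and the number block without that replicate F9 -0.08, Proc 0.05 and F11 0.29. With single arrays left out, the difference ran from -0.10 to 0.05 for F11, -0.04 to 0.07 for F9, -0.18 to 0.14 for Fga and -0.04 to 0.01 for Proc; knockout minus wild type under vehicle from -0.02 to 0.01 for F5; OCA in knockout livers from -0.02 to 0.02 for F2, -0.03 to 0.00 for F9 and -0.03 to 0.01 for Kng1; and OCA in wild-type livers from -0.08 to 0.03 for F9 and -0.02 to 0.30 for Fga.

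Replicate numbers did not pair the livers: deviations of same-numbered livers correlated at -0.05 to 0.17 and 22 of 24 pairs were under 0.1. With the replicate block the counts were 4 under vehicle (5060 genes called) and 6 under OCA (5707 genes called), and 0 for OCA in either genotype. Array signals have no read depth, and 6 livers a group limit the precision.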
